A study of Bos taurus with 8 samples.

Results

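The 7 genes described here encode the enzymes and the cofactor that write, copy and remove methyl groups on cytosine in DNA: the methyltransferases DNMT1, DNMT3A and DNMT3B, the maintenance cofactor UHRF1, and the dioxygenases TET1, TET2 and TET3. They were chosen by gene symbol, with no measured value used, and all 7 were among the 15267 genes of the deposited table and passed the filter on low values that left 11897 genes for testing. Messenger RNA was sequenced in 8 bovine samples, each a piece (0.5 per the labels) of a filamentous conceptus at day 15, from embryos developed in vitro. Of these, 4 were controls and 4, here called FLI, came from embryos given the growth factors FGF2, LIF and IGF1. The study's title places the work after slow-rate freezing of embryos, and the sample labels do not say which samples were frozen, which piece of a conceptus was taken, what strain was used, or whether the samples of a group came from separate animals. The p-values below therefore measure the spread between these samples, which may in part be technical.

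DNA methylation in mammals is set by DNMT3A and DNMT3B, which methylate unmodified CpG sites, and is copied at each round of replication by DNMT1. UHRF1 recognises the hemimethylated CpG sites behind the replication fork and recruits DNMT1 to them. The TET enzymes use oxygen, iron and 2-oxoglutarate to oxidise the methyl group, after which the mark is diluted by replication or replaced by base excision repair; TET1 and TET3 carry a CXXC zinc finger that binds unmethylated CpG sites, and TET2 has lost it. In mouse and human, the trophoblast lineage carries less DNA methylation than the embryo proper. An elongating ruminant conceptus is mostly trophectoderm lined by hypoblast, with a small embryonic disc that descends from the epiblast, so that each sample is a mixture in which fewer cells of a type and less RNA per cell cannot be told apart.

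Libraries held 108851495 to 152570016 reads in genes. The deposited values are CPM, the reads of a gene relative to a library total that the authors had scaled, and 1 read was worth between 0.00646 and 0.00987 CPM. KRT8, a keratin of trophectoderm, was at 6804 CPM or more in all 8 samples. The control sample titled 10 stood apart: of 12 trophectoderm genes, 8 were lowest in it (among them CDX2 at 6.92 CPM, GATA3 at 11.7 CPM and TFAP2C at 24.4 CPM), while TEAD4 was highest in it, at 84.8 CPM, and KRT8, KRT18 and ELF5 were neither. The summed level of 9 hypoblast markers was also highest in it, at 6635 CPM, of which the apolipoprotein APOA1 made up 6183 CPM. The epiblast factor POU5F1 ranged from 1.01 CPM in FLI 50 and 1.42 CPM in FLI 20 to 32.7 CPM in control 20. The sample titles end in 0 (control 10, control 20, FLI 20 and FLI 50) or in M (control 3M, control 4M, FLI 3M and FLI 4M), and the labels do not say what the ending marks. Many genes differed by this ending, so values are given within each ending beside the comparison of treatments.

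Among the methyltransferases, DNMT3B was the most abundant per length and DNMT3A the least. Values divided by the summed exon length in the deposited table averaged 44.0 ± 10.6 CPM per kilobase (SD, n = 8) for DNMT3B, 20.8 ± 2.77 for UHRF1, 15.1 ± 5.65 for TET1, 13.8 ± 2.63 for DNMT1, 4.33 ± 1.62 for DNMT3A, 1.83 ± 0.444 for TET2 and 1.58 ± 0.793 for TET3. DNMT3B lay above UHRF1, DNMT1 above DNMT3A, and DNMT3A above TET2 in 8 of 8 samples. UHRF1 lay above TET1, and TET2 above TET3, in 7 of 8 samples. TET1 and DNMT1 could not be ordered, with TET1 higher in 4 of 8 samples. Without division by length, TET1 moved above UHRF1 in mean CPM and the other neighbours kept their order.

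**Figure D1:**
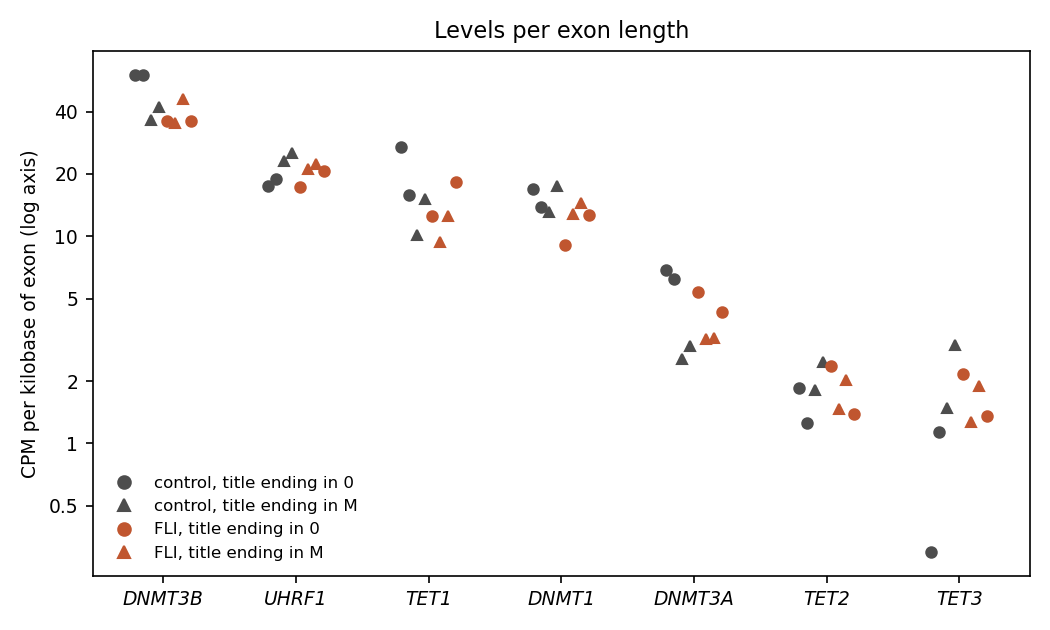
Level of each of the 7 genes per kilobase of summed exon length (CPM per kilobase, log axis), with 1 point per sample, the 4 control and 4 FLI samples in separate colours and the title ending as the symbol. DNMT3B sits above every other gene in all 8 samples, while TET1 and DNMT1 overlap, as do TET2 and TET3.

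Within both families 1 gene supplied most of the level in every sample. DNMT3B supplied 67.5 to 74.9% of the summed methyltransferase level per kilobase in the 8 samples, DNMT1 17.4 to 27.8%, and DNMT3A 4.70 to 10.6%. TET1 supplied most of the TET level in every sample, at 73.5 to 77.3% in 5 samples, 86.8% in control 20, 87.0% in FLI 50 and 92.6% in control 10. The TET3 share was 1.03% in control 10 and 6.25 to 14.5% in the other 7 samples. The level of TET1 per kilobase was 90.1 times that of TET3 in control 10, between 13.5 and 13.9 times in FLI 50 and control 20, and between 5.06 and 7.33 times in the remaining 5 samples. Control 10, control 20 and FLI 50 all have titles ending in 0, and the fourth sample with that ending, FLI 20, had a ratio of 5.82, within the range of the samples with titles ending in M.

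**Figure D2:**
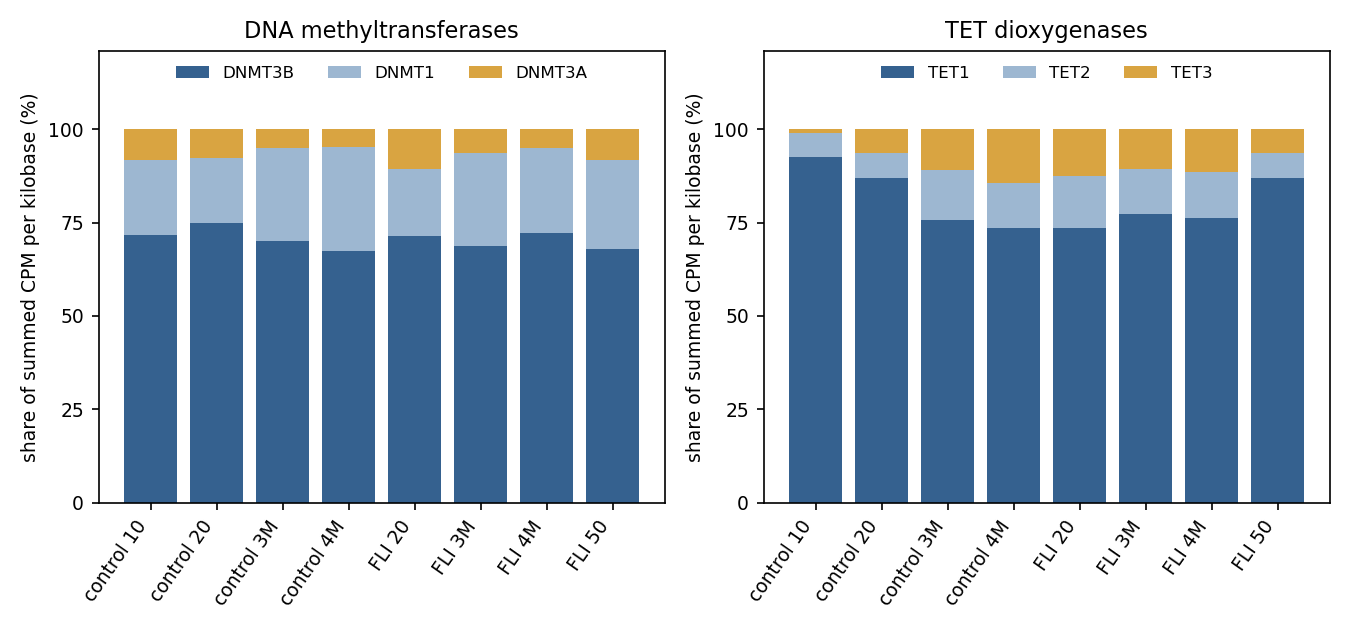
Share of each methyltransferase in the summed DNMT level (left) and of each TET gene in the summed TET level (right), in percent of CPM per kilobase, for each of the 8 samples. DNMT3B holds 67.5 to 74.9% of the first sum in every sample, and TET1 holds 73.5 to 92.6% of the second, with the highest share in control 10.

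The comparison of FLI with control samples asks whether transcripts of these genes differ at day 15 after the embryos received the 3 factors. None of the 7 genes passed an adjusted p of 0.05 in limma (eBayes with trend, log2 of CPM + 0.5, Benjamini-Hochberg adjustment over 11897 genes), in a comparison in which 0 genes, or 0% of those tested, passed. At an unadjusted p of 0.05, 0 of the 7 genes passed beside 338 genes or 2.84% of all tested, of which 225 were higher and 113 lower in FLI. For none of the 7 did the 4 FLI values lie apart from the 4 control values, as they did for 172 genes or 1.45% of all tested. Of the 7 genes, 6 had a lower mean log2 level in FLI and 1, TET3, a higher one. Their median difference was −0.11 on the log2 scale, against 0.00446 over all tested genes, of which 49.2% were lower in FLI. With 4 samples in each group, the smallest p that the exact permutation test can give is 0.0286.

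**Figure D3:**
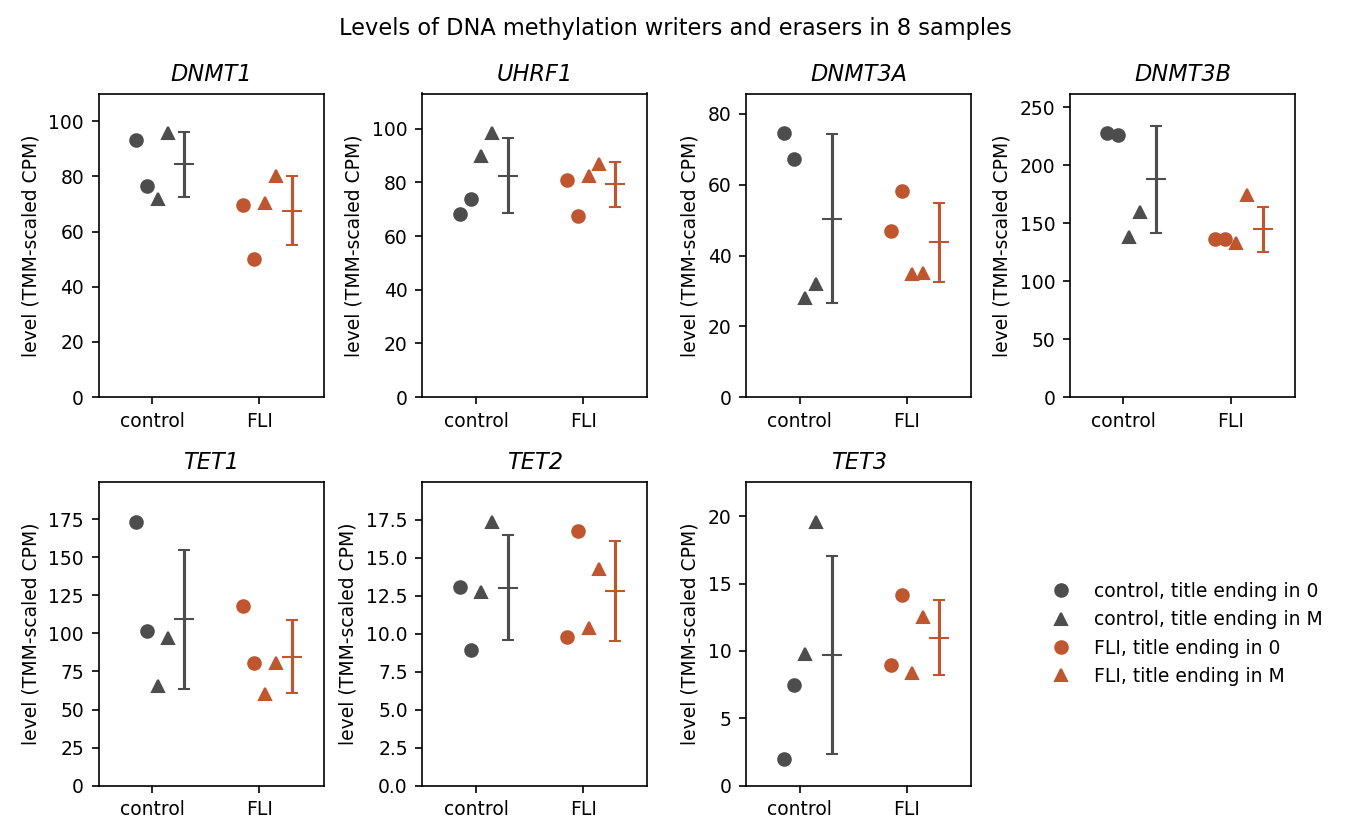
CPM of each of the 7 genes in every sample (vertical axis from 0, 1 panel per gene), with the mean and SD of the 4 control and the 4 FLI samples and the title ending as the symbol. The control and FLI samples overlap for all 7 genes; for DNMT3A and UHRF1 the symbols for the 2 endings separate.

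DNMT1 (ENSBTAG00000002736; ARS-UCD1.2 chromosome 7, 14686995 to 14730720, minus strand), the maintenance methyltransferase, was at 93.2, 76.4, 72.0 and 95.7 CPM in controls 10, 20, 3M and 4M, and at 50.05, 70.5, 80.1 and 69.6 CPM in FLI 20, 3M, 4M and 50. FLI 20 held the lowest value, FLI 3M and FLI 50 lay just under the lowest control, and FLI 4M lay within the control range, so the groups overlapped. The mean was 84.3 ± 11.9 CPM (SD, n = 4) in control and 67.6 ± 12.6 CPM (SD, n = 4) in FLI samples. The difference of −0.33 on the log2 scale (SE 0.17, 95% interval −0.72 to 0.07) did not pass the test, with an adjusted p of 0.970 in limma and a two-sided exact permutation p of 0.143. It was −0.51 between samples with titles ending in 0 and −0.14 between those ending in M, and the difference between the 2 had an adjusted p of 0.910 in limma.

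UHRF1 (ENSBTAG00000002224; chromosome 7, 19223877 to 19257053, minus strand), which brings DNMT1 to newly replicated DNA, was the steadiest of the 7. It was at 68.2, 73.8, 89.9 and 98.4 CPM in controls 10, 20, 3M and 4M, and at 67.4, 82.3, 87.0 and 80.9 CPM in FLI 20, 3M, 4M and 50. The FLI values lay within the control range except that of FLI 20, which was just under it. Means were 82.6 ± 14.0 CPM in control and 79.4 ± 8.39 CPM in FLI samples (SD, n = 4 each). Their difference was −0.05 on the log2 scale (SE 0.15, interval −0.39 to 0.30; adjusted p 0.976 in limma), and leaving out control 4M or FLI 20 turned it to 0.04 or 0.03. The ratio of DNMT1 to UHRF1 per kilobase was between 0.53 and 0.73 in 7 samples and 0.97 in control 10.

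DNMT3A (ENSBTAG00000021143; chromosome 11, 73971560 to 74074893, plus strand), a de novo methyltransferase, was at 74.6, 67.3, 28.0 and 32.0 CPM in controls 10, 20, 3M and 4M, and at 58.3, 34.9, 35.1 and 46.8 CPM in FLI 20, 3M, 4M and 50. Both groups held samples at about 30 to 35 CPM and samples well above them, and the high samples of both groups were those with titles ending in 0. The means, 50.5 ± 23.9 CPM in control and 43.8 ± 11.2 CPM in FLI samples (SD, n = 4 each), differed by −0.11 on the log2 scale (SE 0.35, interval −0.90 to 0.69; adjusted p 0.977 in limma). Leaving out control 10 turned this difference to 0.12, leaving out control 20 turned it to 0.07, and in the fit with a replicate block over 6 samples it was 0.08. Within titles ending in 0 the FLI samples were lower, 52.5 against 70.9 CPM, and within titles ending in M they were higher, 35.0 against 29.97 CPM; the difference between these 2 contrasts was 0.66 on the log2 scale and did not pass the test (adjusted p 0.798 in limma).

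DNMT3B (ENSBTAG00000003901; chromosome 13, 62142537 to 62176363, plus strand), the other de novo methyltransferase and in mouse the main one of the early embryo, was at 228, 226, 138 and 159 CPM in controls 10, 20, 3M and 4M. The FLI samples 20, 3M, 4M and 50 were at 137, 133, 174 and 136 CPM. Controls 10 and 20 were higher than every FLI sample, and control 3M and control 4M lay among the FLI samples. The mean was 188 ± 45.9 CPM in control and 145 ± 19.5 CPM in FLI samples (SD, n = 4 each). The difference of −0.35 on the log2 scale (SE 0.19, interval −0.79 to 0.09) had an adjusted p of 0.970 in limma and a two-sided exact permutation p of 0.171. Among titles ending in 0, the means were 227 CPM in control and 136 CPM in FLI samples, a difference of −0.73 on the log2 scale. Between titles ending in M, the means were 149 and 153 CPM, and the difference between the 2 contrasts, 0.77 on the log2 scale, did not pass the test (adjusted p 0.763 in limma).

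TET1 (ENSBTAG00000037756; chromosome 28, 24918286 to 25035716, plus strand), which in mouse is the main TET gene of pluripotent cells, was at 173, 102, 65.3 and 97.1 CPM in controls 10, 20, 3M and 4M, and at 80.7, 60.01, 80.4 and 118 CPM in FLI 20, 3M, 4M and 50. Control 10 was the highest, FLI 50 the next, and the groups overlapped. The means of 109 ± 45.6 CPM in control and 84.7 ± 24.1 CPM in FLI samples (SD, n = 4 each) differed by −0.32 on the log2 scale (SE 0.31, interval −1.02 to 0.38; adjusted p 0.970 in limma). Without control 10 the difference was −0.07, and in the fit with a replicate block, which also lacks control 10, it was −0.24 (adjusted p 0.695 in limma). TET1 was lower in the FLI sample of each of the 3 same-titled pairs, as DNMT1 and UHRF1 were.

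TET2 (ENSBTAG00000017682; chromosome 6, 19898416 to 19995309, minus strand), known as a tumour suppressor in blood stem cells, was low, at 13.1, 8.90, 12.7 and 17.4 CPM in controls 10, 20, 3M and 4M and at 16.8, 10.4, 14.3 and 9.80 CPM in FLI 20, 3M, 4M and 50. The FLI values all lay inside the control range. Means were 13.0 ± 3.46 CPM in control and 12.8 ± 3.30 CPM in FLI samples (SD, n = 4 each), a difference of −0.02 on the log2 scale (SE 0.25, interval −0.59 to 0.55; adjusted p 0.994 in limma). Its sign changed in the fit with a replicate block (0.11) and without control 4M (0.13), FLI 3M (0.07) or FLI 50 (0.09).

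TET3 (ENSBTAG00000022381; chromosome 11, 10561669 to 10666478, minus strand), the TET gene of the oocyte and zygote in mouse, varied most. It was at 1.97, 7.49, 9.75 and 19.6 CPM in controls 10, 20, 3M and 4M, and at 14.2, 8.37, 12.5 and 8.94 CPM in FLI 20, 3M, 4M and 50. The lowest and the highest of the 8 values, 9.96-fold apart, were both controls, so the FLI values lay inside the control range. The value in control 10 rested on 259 reads, with an exact Poisson 95% interval of 1.74 to 2.22 CPM that covers counting error only. Means were 9.70 ± 7.36 CPM in control and 11.0 ± 2.80 CPM in FLI samples (SD, n = 4 each). The difference was 0.49 on the log2 scale (SE 0.57, interval −0.80 to 1.78; adjusted p 0.970 in limma), and without control 10 it was −0.07. Within titles ending in 0 it was 1.41, and within titles ending in M −0.42, with an adjusted p of 0.846 in limma for the difference between the 2.

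**Figure D4:**
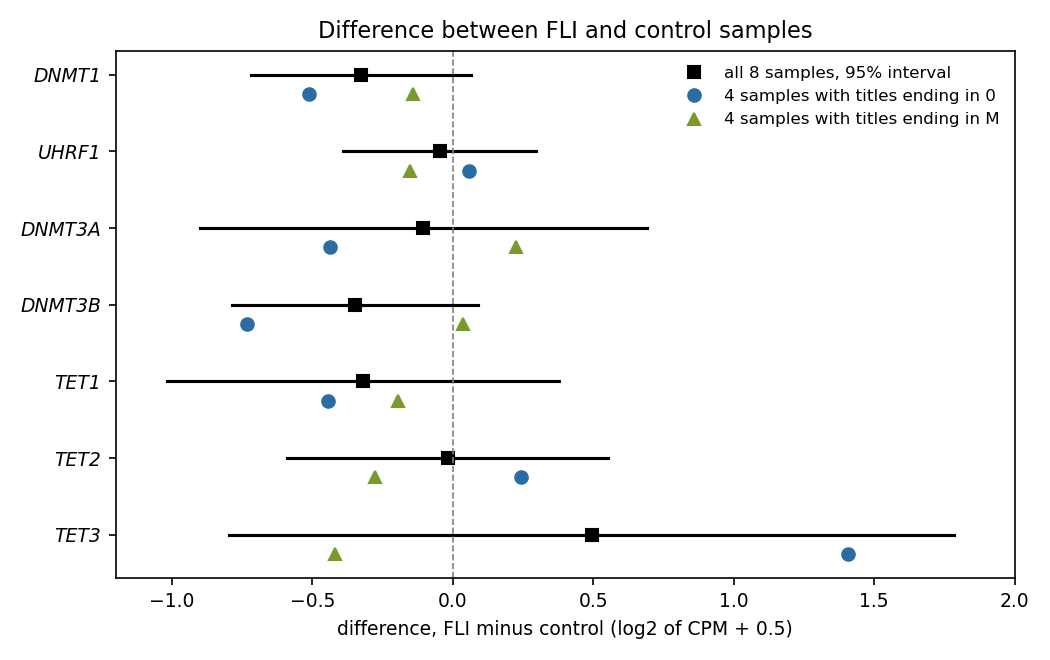
Difference between FLI and control samples for each gene (log2 of CPM + 0.5), with the 95% interval of the limma fit over all 8 samples as a bar, and the differences within titles ending in 0 and in M as separate points. All 7 intervals include 0, and for DNMT3A, UHRF1, TET2 and TET3 the 2 endings fall on opposite sides of 0, as does DNMT3B by a small margin.

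The spread inside the groups differed between the 7 genes. On the log2 scale, the SD within groups was 0.21 for UHRF1, 0.25 for DNMT1, 0.29 for DNMT3B, 0.37 for TET2, 0.49 for TET1, 0.57 for DNMT3A and 0.93 for TET3, against a median of 0.31 over all tested genes. UHRF1 was at percentile 24.8 of all tested genes and TET3 at percentile 91.2. DNMT1, UHRF1 and DNMT3B varied less than the median gene, and DNMT3A, TET1, TET2 and TET3 varied more. In the authors' deposited table, the log2 fold changes of the 7 genes ran from −0.37 for DNMT3B to 0.35 for TET3, and the table gives each an adjusted p of 0.99996 and lists 32 genes under 0.05.

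DNMT3A and UHRF1 divided the samples by title ending. This comparison was chosen after the data were seen and was fitted with treatment as a term. DNMT3A was at 46.8 to 74.6 CPM in the 4 samples with titles ending in 0 and at 28.0 to 35.1 CPM in the 4 ending in M, means of 61.7 ± 12.0 and 32.5 ± 3.33 CPM (SD, n = 4 each), and the sets did not overlap. The difference, M minus 0, was −0.90 on the log2 scale (SE 0.17, interval −1.29 to −0.52), or 1.87-fold higher with titles ending in 0, and its adjusted p in limma was 0.0878, above the threshold. It kept its sign in all alternatives run, at −1.03 to −0.57. Adjusted p-values were 0.000394 in edgeR's likelihood ratio test with robust weights and 0.000196 in DESeq2 on the recovered reads. Those 2 tests called 1286 and 1647 of 11897 genes by ending, where limma called 1. In limma-voom with quality weights, which called 0 genes, the adjusted p was 0.0502. Without control 10 and control 20 together the DNMT3A difference was −0.57, with an adjusted p of 0.451 in limma.

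UHRF1 lay the other way, at 67.4 to 80.9 CPM with titles ending in 0 and 82.3 to 98.4 CPM with titles ending in M, again with no overlap. The means were 72.6 ± 6.21 and 89.4 ± 6.76 CPM (SD, n = 4 each), a difference of 0.30 on the log2 scale (SE 0.11, interval 0.05 to 0.55; adjusted p 0.161 in limma). TET1 was higher on average with titles ending in 0, 118 ± 39.7 against 75.7 ± 16.7 CPM, but the sets overlapped and the difference of −0.61 had an adjusted p of 0.168 in limma. Differences of the other 4 genes were 0.16 for DNMT1, −0.23 for DNMT3B, 0.19 for TET2 and 0.78 for TET3, with adjusted p-values of 0.383 to 0.674 in limma. As DNMT3A was lower and DNMT3B differed less, the ratio of DNMT3B to DNMT3A per kilobase was 11.0 to 14.3 with titles ending in M and 6.75 to 9.68 with titles ending in 0.

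A split of this kind was common in these libraries. Sets did not overlap for 2196 genes, 18.5% of all tested, with 1127 higher and 1069 lower in titles ending in M, so that 2 of 7 genes is not far from the background. At the adjusted threshold limma called 1 gene of 11897, or 0.00841%: FGB, a fibrinogen chain, at 16.3 to 44.4 CPM with titles ending in 0 and 0.112 to 1.26 CPM with titles ending in M. That count was 45 without control 10, 2 without FLI 3M or FLI 50, and 0 without control 20, control 3M, control 4M or FLI 4M; DNMT3A was not called in any of these fits.

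The summed markers of hypoblast and of mesoderm and vessel also divided the samples by ending. Those of epiblast, trophectoderm, blood and endometrium overlapped between the endings. The epiblast sum was 124.9 to 494 CPM with titles ending in 0 and 157 to 275 CPM with titles ending in M. The trophectoderm sum was 16166 to 22371 CPM and 13119 to 25799 CPM. The summed level of 9 hypoblast markers was 2319 to 6635 CPM with titles ending in 0 and 596 to 1242 CPM with titles ending in M. Of its 8 tested genes 6, among them GATA4, GATA6, SOX17, HNF4A and APOA1, were higher in all 4 samples ending in 0. Over all tested genes 18.5% divided by ending in either direction. DNMT3A had its highest values, 74.6 and 67.3 CPM, in controls 10 and 20, where the hypoblast sum was 6635 and 2996 CPM, and its lowest, 28.0 and 32.0 CPM, in controls 3M and 4M, where it was 664 and 596 CPM. APOA1 made up most of the hypoblast sum, and 2 tested genes overlapped between endings: FOXA2, and PDGFRA, which was higher on average with titles ending in M (4.55 CPM in FLI 20, 8.02 CPM in FLI 50). The plasma protein gene AFP was at 0 reads in 5 of the 8 samples, FLI 20 and FLI 50 among them. The sum of 8 mesoderm and vessel markers was 59.7 to 537 CPM with titles ending in 0 and 10.3 to 22.3 CPM with titles ending in M. HAND1 supplied 526 CPM of it in FLI 20 and COL1A1 101.5 CPM in control 10; of the 4 genes tested, HAND1 and PECAM1 were higher in all samples ending in 0, and COL1A1 and TBXT overlapped. The part of these markers in the DNMT3A difference was not tested.

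UHRF1 was high in the samples where genes of DNA replication were high. The sum of 19 S phase and proliferation genes was 2497 to 3354 CPM with titles ending in 0 and 3366 to 3777 CPM with titles ending in M. FLI 20, with the lowest UHRF1 (67.4 CPM) and DNMT1 (50.05 CPM), also had the lowest sum, 2497 CPM. Of the 19 genes, 9 were higher in all samples ending in M and 0 were lower, beside 18.5% of all tested genes divided in either direction. Their median difference was 0.34 on the log2 scale against 0.0356 over all tested genes. None of the 19 passed the adjusted threshold, and the part of proliferation in the UHRF1 difference was not tested.

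**Figure D5:**
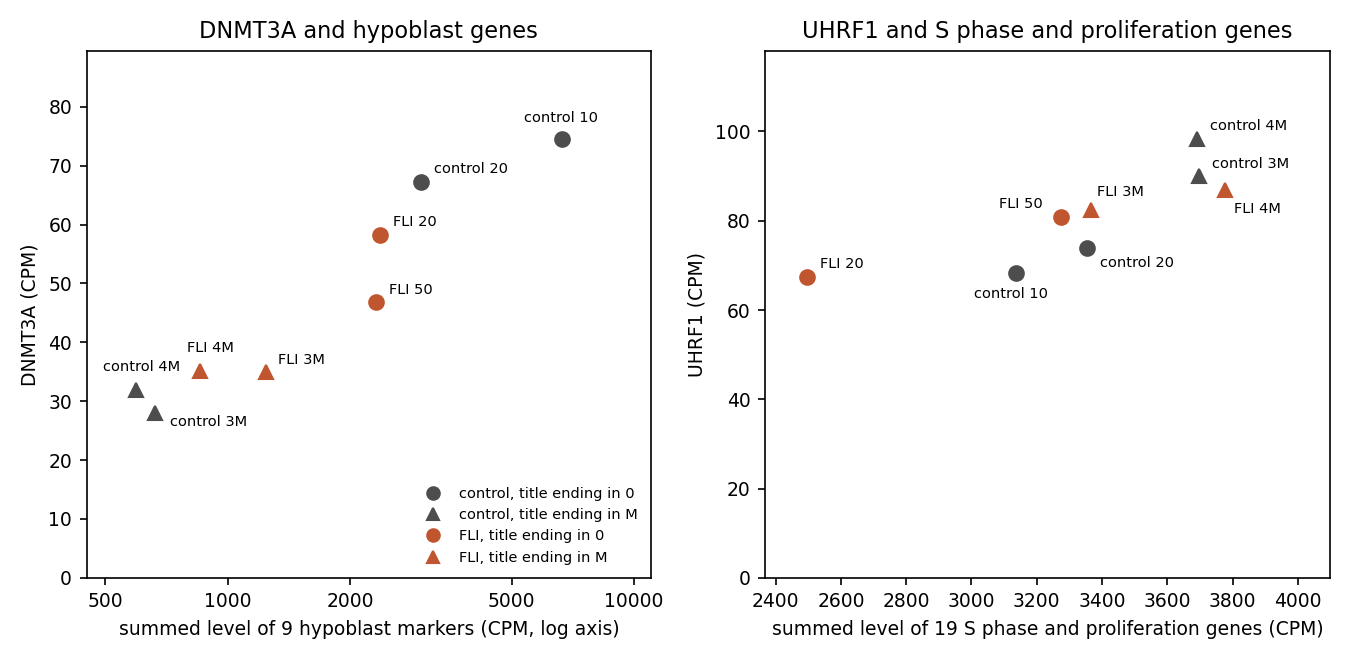
Left, DNMT3A (CPM) against the summed level of 9 hypoblast markers (CPM, log axis); right, UHRF1 (CPM) against the summed level of 19 S phase and proliferation genes (CPM), with 1 labelled point per sample. The 4 samples with titles ending in 0 lie at hypoblast sums of 2319 CPM and more with DNMT3A at 46.8 CPM and more, and UHRF1 is at 82.3 CPM and more in the 4 samples with titles ending in M.

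For the TET genes, control 10 carried the highest TET1, the lowest TET3, the lowest CDX2, GATA3 and TFAP2C, the highest TEAD4 and the highest hypoblast sum together. The epiblast marker sum, for which 9 genes were in the table, was 157 to 494 CPM in control and 124.9 to 275 CPM in FLI samples. Its 2 highest values were in controls 10 and 20 (494 and 389 CPM), the samples that also held the 2 highest DNMT3B values. TDGF1, LIN28A and SALL4 made up most of this sum, so it did not follow POU5F1. The sum was 235 CPM in FLI 50, where POU5F1 was at 1.01 CPM, and 157 CPM in control 3M, where POU5F1 was at 4.80 CPM. Of the 7 tested epiblast genes, 7 were lower in FLI on average and none passed the test, with a median difference of −0.65 on the log2 scale. The endings differed in this. With titles ending in 0, POU5F1 was at 23.0 and 32.7 CPM in controls and 1.42 and 1.01 CPM in FLI samples. With titles ending in M it was at 4.80 and 13.3 CPM in controls and 10.2 and 17.4 CPM in FLI samples. NANOG, OTX2, NODAL and TDGF1 were also higher on average in FLI with titles ending in M, and LIN28A and SALL4 were slightly lower. Of these tested epiblast genes, only OTX2 did not overlap between control and FLI samples there. The most abundant, TDGF1 and LIN28A, averaged 122 ± 69.5 and 101 ± 50.8 CPM in controls, and 84.4 ± 27.1 and 61.9 ± 22.2 CPM in FLI samples (SD, n = 4 each). NODAL and PRDM14 were at 0 reads in FLI 20 and FLI 50, where DNMT3B was at 137 and 136 CPM. Both were detected in FLI 3M and control 3M, where DNMT3B was at 133 and 138 CPM. They were highest in control 10, control 20, control 4M and FLI 4M, where DNMT3B was at 228, 226, 159 and 174 CPM. In these samples NODAL was at 1.18 to 1.81 CPM and PRDM14 at 0.471 to 0.782 CPM. Of 12 trophectoderm genes, 11 were higher in FLI on average, with a median difference of 0.80 on the log2 scale. None passed the adjusted threshold, and 3 had an unadjusted p under 0.05 in limma, beside 2.84% of all tested genes. For 1 of the 12 the groups did not overlap, beside 1.45% of all tested genes. The trophectoderm sum was 13119 to 20563 CPM in control and 17091 to 25799 CPM in FLI samples, most of it KRT8 and KRT18. The part of cell makeup in the differences of TET1, TET3 and DNMT3B was not tested.

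The genes that work beside DNMT1, UHRF1 and the DNMT3 enzymes showed no call for treatment. Of 20 such partners, 18 were tested, 7 higher and 11 lower in FLI, none past the threshold, with a median difference of −0.03 on the log2 scale. TRIM28, the scaffold that brings methylation to imprinted sites and retroelements, was the most abundant, with 532 ± 60.3 CPM in controls and 457 ± 58.7 CPM in FLI samples (SD, n = 4 each). TRDMT1, a DNMT relative that methylates transfer RNA, was at 11.2 ± 0.678 and 9.14 ± 2.12 CPM. By title ending, PCNA, USP7, NSD2 and SETDB1 were higher in all samples ending in M, as UHRF1 was. None of the 18 was lower in all of them. Over all tested genes 18.5% divided by ending in either direction, so 4 of 18 is near the background. These 4 genes are named after their values were seen. PCNA is the replication clamp to which DNMT1 binds, and USP7 removes ubiquitin from UHRF1 and DNMT1.

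The readers of methylated CpG sites were also uncalled, with 6 of 10 higher and 4 lower in FLI and a median difference of 0.06. MBD3, a subunit of the NuRD complex, averaged 120 ± 16.5 CPM in controls and 115 ± 15.9 CPM in FLI samples. ZBTB33, the zinc finger reader Kaiso, was at 17.8 ± 5.04 and 14.8 ± 3.81 CPM, and MBD6 at 20.4 ± 2.33 and 23.0 ± 4.80 CPM (SD, n = 4 each). By title ending, MBD3 was higher, and MBD5, ZBTB38 and ZBTB4 lower, in all samples ending in M, a division that 18.5% of all tested genes showed.

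Among genes that act after or with the TET enzymes, 17 of 19 were tested, 11 higher and 6 lower in FLI, with a median difference of 0.18 and none past the adjusted threshold. The 2 of smallest p both bear on the metabolites that feed or block the enzymes. D2HGDH, which clears the TET inhibitor 2-hydroxyglutarate, averaged 10.3 ± 1.91 CPM in controls and 19.7 ± 10.5 CPM in FLI samples (SD, n = 4 each). IDH2, the mitochondrial enzyme that makes 2-oxoglutarate, was at 17.2 ± 3.43 and 10.7 ± 4.45 CPM, and the groups overlapped for both genes. PARP1, a DNA break sensor, was at 336 ± 44.4 and 330 ± 19.8 CPM. By title ending, IDH1, the cytosolic enzyme of the same reaction, and the glycosylase NEIL3 were lower, and the repair endonuclease APEX1 higher, in all samples ending in M. The share of all tested genes so divided was 18.5%, near that of this list.

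The methionine and folate cycles supply the methyl donor S-adenosylmethionine. Of 21 genes, 17 were tested, 4 higher and 13 lower in FLI, with a median difference of −0.16 and none past the adjusted threshold. The folate receptor FOLR1 averaged 18.9 ± 13.4 CPM in controls and 8.52 ± 4.69 CPM in FLI samples. AHCY, which removes the methyltransferase inhibitor S-adenosylhomocysteine, was the most abundant, at 521 ± 91.9 and 431 ± 36.0 CPM (SD, n = 4 each). By title ending, 1 of the 17 tested genes, AHCYL2, was higher in all samples ending in M, beside 18.5% of all tested genes divided in either direction. In the S phase list, 6 of 19 genes were higher and 13 lower in FLI, with a median difference of −0.06; RRM2, a subunit of ribonucleotide reductase, was at 540 ± 75.3 and 395 ± 92.9 CPM, and CCNE2, a cyclin of S phase entry, at 23.8 ± 5.51 and 17.7 ± 3.43 CPM.

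The genes whose log2 levels ran most alike over the 8 samples are given as a description, by Pearson's r over points that share libraries and title ending. For DNMT1 they were CRK (0.974), GPN1 (0.969) and LGALS8 (0.959), and for UHRF1 they were SUPV3L1 (0.989), LIG3 (0.985) and GPN3 (0.984). DNMT3A ran most like CNN2 (0.991), LDLRAD3 (0.990) and AGPAT4 (0.988), and DNMT3B most like LAPTM4B (0.977), SRF (0.962) and TUBB1 (0.953). TET1 had CDK17 (0.988), C14H8orf37 (0.984) and SMCHD1 (0.983), TET2 had HMGB2 (0.949), TAF1D (0.945) and FNBP4 (0.943), and TET3 had PRSS22 (0.992), ELK3 (0.992) and OXR1 (0.984). None of the 7 genes was among the 3 most like any other of the 7.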

How the data were processed

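RNA was made into stranded libraries after poly-A selection, per the labels. FastQC, HISAT2, featureCounts, edgeR and build ARS-UCD1.2 are named in the submitters' processing notes; their versions, and whether counting used strand, were not given in the sources used here, so reads of overlapping antisense genes may be mixed. The deposited signal was found, from its values, to be CPM for which the authors had scaled library totals by TMM. Whole reads were recovered from it (100% of values whole within 0.001). The authors' deposited table also holds, per the file headers, log2 fold changes, a likelihood ratio score and p-values.

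Groups follow the treatment label. log2(value + 0.5) was tested with limma 3.58.1 in R 4.3.3 for genes that reached 1 in 4 or more samples, with Benjamini-Hochberg adjustment over 11897 genes, a threshold of 0.05 and two-sided tests. edgeR 4.0.16 and DESeq2 1.42.0 were run on recovered reads as alternatives; other alternatives were limma-voom, pseudocounts of 0.1 and 1, other filters and scaling, each sample left out, 1 title ending only, and title ending as a term. The script was tested on simulated data, in which limma recovered 32% of 2-fold, 74% of 4-fold and 94% of 8-fold changes. Of 160 calls there, 15 were false. The genes and lists were chosen with earlier results of these data known. Named genes were the 7, the 2 of smallest p and the most abundant of each pathway list, the 2 most abundant of each marker list, and the 3 most correlated with each of the 7; others are named from counts; a few genes of these lists are not reported here.

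Titles 20, 3M and 4M occur in both groups. Same-titled samples deviated together from their group means (r = 0.133, 0.351 and 0.359, across genes), so a replicate block over those 6 samples was fitted. Pairs with the same title ending, these 3 included, ran from 0.133 to 0.359, and pairs of unlike ending from −0.385 to 0.0284.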

Additional observations from a re-analysis of the deposited data

Results flagged for a closer look

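In 66 groups of 4 samples checked, 5 held a sample far from the other 3 by Dixon's criterion, which chance meets in about 1 of 20 groups. DNMT3B in FLI 4M was at 174 CPM, and the other FLI samples at 133 to 137 CPM. D2HGDH in control 20 was at 13.1 CPM, and the other controls at 9.03 to 9.49 CPM. HAND1, a factor of mesoderm and trophoblast, was at 526 CPM in FLI 20 and at 5.25 to 46.3 CPM in the other FLI samples. COL1A1, a collagen of mesenchyme, was at 101.5 CPM in control 10 beside 4.93 to 12.2 CPM in the other controls, and at 23.9 CPM in FLI 50 beside 4.61 to 5.49 CPM in the other FLI samples.

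DNMT3A was lower in both FLI samples with titles ending in 0 than in both such controls, and higher in both FLI samples with titles ending in M than in both such controls. The difference between the 2 contrasts was 0.66 on the log2 scale and did not pass the test (adjusted p 0.798 in limma).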

How the results depend on the processing

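For FLI against control, 0 genes were called in all alternatives except edgeR's likelihood ratio test with robust weights (22) and DESeq2 (9); edgeR's quasi-likelihood test called 0, with 376 genes at an unadjusted p under 0.05. None of the 7 genes was called in any alternative. DNMT1 and TET1 kept their sign in all alternatives run. The sign turned with limma-voom for TET3 (−0.024), with the replicate block for DNMT3A (0.081) and TET2 (0.11), with titles ending in 0 alone for UHRF1 (0.057) and TET2 (0.24), and with titles ending in M alone for DNMT3A (0.22), DNMT3B (0.035) and TET3 (−0.42). Leaving out 1 sample gave −0.34 to 0.12 for DNMT3A, −0.13 to 0.042 for UHRF1, −0.18 to 0.13 for TET2 and −0.071 to 0.94 for TET3. The replicate block changed no call. For titles ending in M against 0, genes called numbered 1 of 11897 in the reported fit and 0 with edgeR's quasi-likelihood test and limma-voom. The robust likelihood ratio test called 1286 and DESeq2 1647 of the 11897. With 1 sample left out 0 to 45 were called, and 0 without control 10 and control 20. Of the 7 genes, 1 (DNMT3A) was called by the robust likelihood ratio test and 1 (DNMT3A) by DESeq2; without controls 10 and 20, DNMT3B (0.16), TET2 (−0.075) and TET3 (−0.13) turned sign. The causes were not tested. The lowest count of the 7 genes was 259 reads, so the width of the intervals comes from the spread between samples more than from depth.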

Other observations

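Germline genes that DNA methylation keeps silent in mouse somatic cells were in part detected. Of 13 symbols, 6 were in the table and 3 were tested, with 2 higher and 1 lower in FLI, none past the adjusted threshold in limma, and a median difference of 0.12 on the log2 scale. ASZ1 averaged 19.2 ± 8.10 CPM in controls and 15.9 ± 5.14 CPM in FLI samples, and SYCP3, a protein of the meiotic chromosome axis, at 7.30 ± 5.33 and 8.27 ± 4.67 CPM (SD, n = 4 each). MAEL and MOV10L1, which did not pass the filter on low values, reached 0.672 and 0.418 CPM at most. DDX4, an RNA helicase of germ cells, did not pass it either and is singled out after its values were seen. It was at 0.0760 to 0.619 CPM in control and 0.888 to 1.70 CPM in FLI samples, with no overlap. The two-sided exact permutation p was 0.0286, the smallest the design allows and not adjusted for the number of genes. Every gene without overlap gets this p, so it adds nothing to the lack of overlap. Among the tested genes, 172 or 1.45% had no overlap between the groups.

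The sum of 3 blood and leukocyte genes was 2.83 to 15.0 CPM, highest in FLI 20, where CD14 was at 11.3 CPM, and that of 3 endometrial genes was 1.10 to 3.64 CPM.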
